A study of Macaca fascicularis with 64 samples.

Results

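The genes NFKBIA, TNFAIP3, RIPK1, CXCL8, CCL2, ICAM1, VCAM1, BCL2A1, UBD and FDCSP encode regulators of nuclear factor κB (NF-κB) signalling or products that inflamed cells make, and were followed here in pancreatic islet cells. They are 10 of the 21041 macaque genes counted. The genes were selected on measured values of these data. FDCSP, UBD, VCAM1, CCL2 and BCL2A1 had led a cluster of α-like cells in an earlier analysis, so their values in α-cells and their co-occurrence are given as a description with no test, and a lower level of CXCL8 in old α-cells was known as well.

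The animals were 16 cynomolgus monkeys (Macaca fascicularis), 8 young with 4 females and 4 males and 8 old with 4 females and 4 males, which the study describes as healthy. Age and sex were the only differences between groups that the labels give, with no treatment and no genotype, and age in years is not among the labels. Single pancreas cells were picked by mouth pipette and sequenced in 4 libraries per monkey, 64 in all, with a barcode for each cell and a unique molecular identifier (UMI) for each captured transcript. The study asked what ageing changes in each endocrine cell type.

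NF-κB proteins rest in the cytoplasm bound to inhibitors of the IκB family. Signals from receptors for tumour necrosis factor or interleukin-1 lead to the loss of the inhibitor, and NF-κB then enters the nucleus and switches on chemokines, adhesion molecules, survival factors and its own inhibitors. In islets this response is best known from exposure to cytokines, and immune and endothelial cells of the tissue use it too.

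Cells needed more than 800 macaque genes and more than 10000 UMIs, counted with spike-ins, to be kept. Of 6141 barcodes 5908 passed, between 338 and 381 per monkey. A cell was typed by the highest of the 4 hormones GCG, INS, SST and PPY, which gave 4503 α-cells, 1219 β-cells, 112 δ-cells and 74 PP-cells. Each type carried its markers in the summed cells: per 1000000 macaque UMIs (CPM), the α-cell factor FEV was at 146 in α-cells and 9.58 in β-cells, SLC2A2 at 688 in β-cells and 9.26 in α-cells, HHEX at 386 in δ-cells and 2.10 in α-cells, and UGT2B20 at 155 in PP-cells and 0.828 in α-cells. Every cell also held other hormones, with GCG at 19155 CPM in β-cells and INS at 6836 CPM in α-cells. Between 21982838 and 35850398 UMIs were counted per young monkey and between 23664333 and 35216122 per old monkey, spike-ins included, and the same 96 cell barcodes served all 16 monkeys.

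In 383 of the 5908 cells (6.48%), and in 7.26% of the α-cells, the type was less certain. These cells had at least 3 markers of 1 immune, endothelial, stellate, acinar or ductal list at 100 CPM or more, or the 4 hormones under 10000 CPM together (170 α-cells), or their own hormone below 0.5 times the median of their type and monkey (179 α-cells). Of the α-cells with markers of another type or few hormones, 149 came from young and 21 from old monkeys. They are called marked or low-hormone cells in what follows, and values are given with and without them where they matter.

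The 10 genes differed in how their UMIs were spread over cells. NFKBIA was found in 51.4% of all cells, and its 10 highest cells held 8.00% of its 23673 UMIs. RIPK1 and TNFAIP3 were found in 7.75% and 4.64% of cells, with 18.2% and 28.5% of their UMIs in 10 cells. In contrast, 10 cells held 65.9% of the UMIs of CXCL8, 71.8% of those of ICAM1, 74.7% of BCL2A1, 82.7% of VCAM1, 83.0% of FDCSP, 86.8% of UBD and 88.4% of CCL2.

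**Figure D1:**
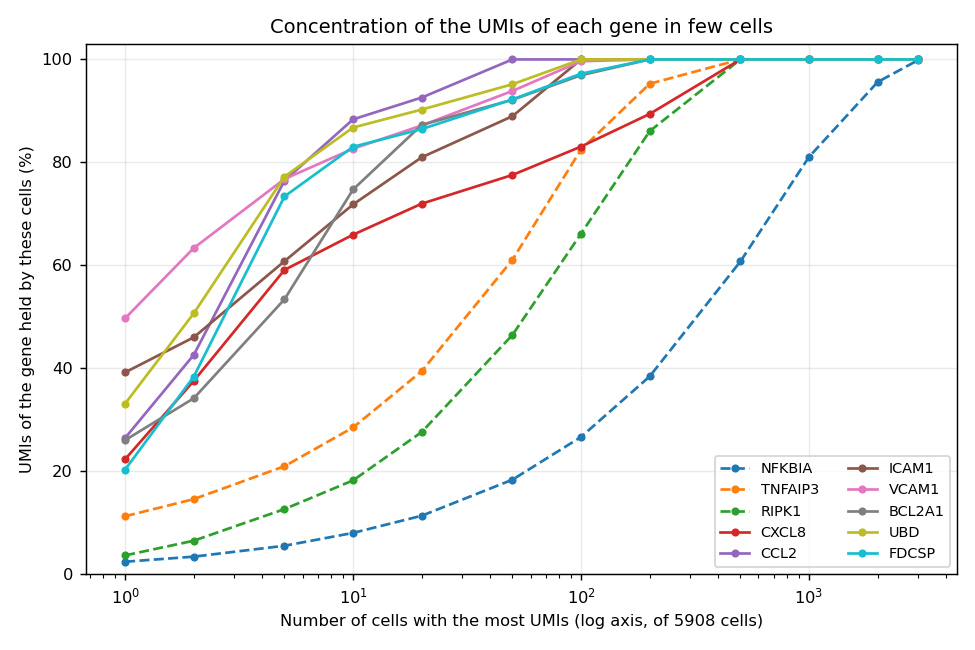
Percentage of the UMIs of each gene (vertical axis) held by the cells with the most UMIs of that gene (number of cells, horizontal log axis, of 5908 cells); solid lines are the 7 genes whose UMIs lie in few cells and broken lines the other 3. The 5 highest cells held 59.1% of the UMIs of CXCL8, while 335 cells were needed for 50% of those of NFKBIA.

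The cells at the top of each list were mostly of uncertain type. Marked or low-hormone cells made up 10 of the 10 highest cells of VCAM1 and of FDCSP, 9 of those of UBD and of ICAM1, 8 of those of BCL2A1 and of NFKBIA, 7 of those of CXCL8 and of CCL2, but 3 of those of RIPK1 and 2 of those of TNFAIP3, beside the 6.48% of all cells. For CXCL8, CCL2, ICAM1, VCAM1, BCL2A1, UBD and FDCSP the levels of a monkey thus rested on few cells, and summed levels cannot tell fewer such cells from less RNA in each.

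NFKBIA encodes IκBα, the inhibitor that holds NF-κB in the cytoplasm and is itself switched on by NF-κB. In summed α-cells it was at 62.2 ± 22.8 CPM (SD, n = 8) in young monkeys, with a lowest value of 35.0, a median of 61.7 and a highest of 94.9, and at 38.8 ± 8.35 CPM (SD, n = 8) in old monkeys, with a lowest value of 29.4, a median of 36.9 and a highest of 53.8. The 4 young females and young male 3 lay above every old monkey, while the other 3 young males, between 35.0 and 41.4 CPM, lay within the range of the old animals. The difference was −0.69 on the log2 scale (SE 0.19), with an unadjusted p of 0.00163 and an adjusted p of 0.535 in edgeR's quasi-likelihood test with Benjamini-Hochberg adjustment over 12916 genes, so that it was not called. It stayed negative in the 16 fits without 1 monkey and in the 10 other alternatives, none of which called it, with adjusted p between 0.124 and 0.854.

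Part of the young level of NFKBIA lay in few cells. The 5 cells highest in CXCL8, described below, carried 1086 NFKBIA UMIs at 7312 to 29375 CPM, which is 4.59% of all NFKBIA UMIs, and without them young female 4 fell from 89.7 to 54.3 CPM. Without these and the 6 cells highest in FDCSP, young α-cells were at 55.4 ± 15.7 CPM and old ones at 38.5 ± 8.16 CPM (SD, n = 8 each), and 5 of 8 young monkeys still lay above every old one. Without all marked or low-hormone cells the values were 54.4 ± 15.7 and 37.7 ± 7.79 CPM.

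In β-cells NFKBIA was at 77.0 ± 27.2 CPM in young monkeys, with a lowest value of 42.8, a median of 66.5 and a highest of 117.8, and at 49.2 ± 23.2 CPM in old monkeys, with a lowest value of 35.0, a median of 39.6 and a highest of 104.6 (SD, n = 8 each). The groups overlapped, since young male 3 at 42.8 CPM lay below old females 4 and 2 and old male 2, at 104.6, 54.8 and 43.6 CPM. The log2 difference was −0.63 (SE 0.23), with an adjusted p of 0.757 in edgeR's quasi-likelihood test with Benjamini-Hochberg adjustment. The age difference in α-cells and that in β-cells were 0.04 apart on the log2 scale (SE 0.27, adjusted p = 0.998 for the interaction in the same kind of fit).

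Within monkeys, NFKBIA was lower in α-cells than in β-cells in 11 of 16 animals, with means of 50.5 ± 20.5 and 63.1 ± 28.3 CPM (SD, n = 16). The log2 difference was −0.30 (SE 0.13), with an adjusted p of 0.0691 in edgeR's quasi-likelihood test with Benjamini-Hochberg adjustment and the monkey as a block. The call depended on which cells were used: the adjusted p was 0.0311 without cells with markers of another type or few hormones and 0.0167 with cells whose highest hormone was at least 2 times the next. It also depended on single animals, with an adjusted p of 0.0125 without young male 3, 0.0370 without old female 1 and 0.0373 without young female 4. After every cell was thinned to 10000 UMIs the difference was −0.04. With the cells of all monkeys pooled, 49.9% of α-cells (95% exact binomial interval 48.4 to 51.3) and 57.8% of β-cells (54.9 to 60.5) had an NFKBIA UMI, and 23.5% and 28.2% after thinning. These intervals cover counting error only and not the spread between monkeys. By monkey, the share was 54.6 ± 12.6% of α-cells and 58.4 ± 15.2% of β-cells in young animals. In old animals it was 44.7 ± 8.09% and 52.0 ± 12.6% (SD, n = 8 each).

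**Figure D2:**
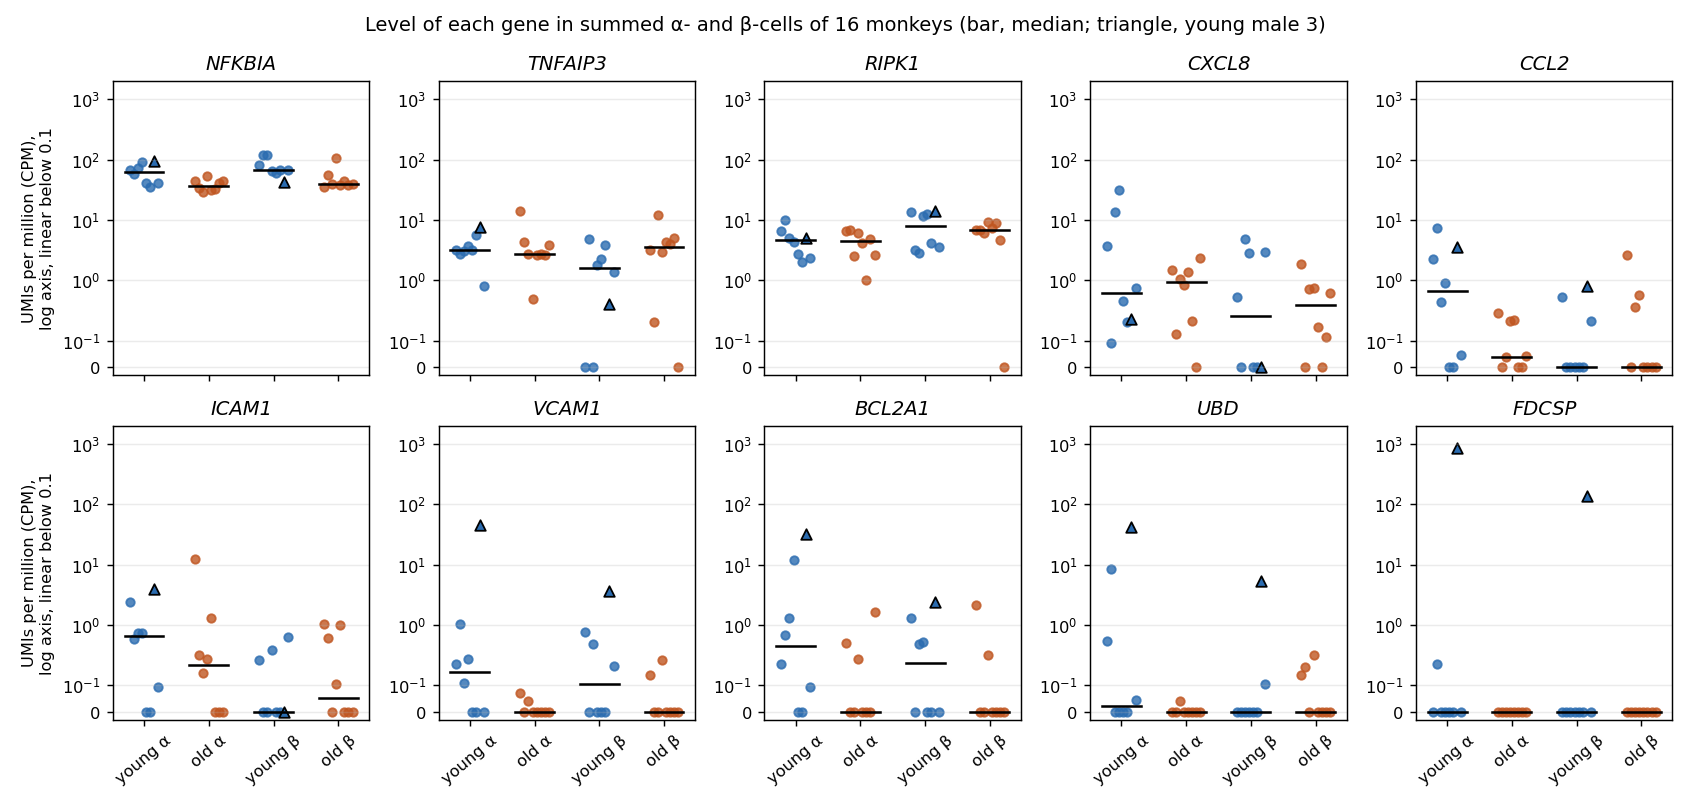
Level of each of the 10 genes in CPM (vertical axis, logarithmic above 0.1 and linear below) in the summed α- and β-cells of young and old monkeys; each point is a monkey, the bar is the median of 8 monkeys, and the triangle is young male 3. NFKBIA was at 29.4 CPM or more in α-cells of every monkey, whereas the medians of VCAM1, BCL2A1, UBD and FDCSP in old α-cells were 0.

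TNFAIP3 encodes A20, a ubiquitin-editing enzyme that ends NF-κB signalling. It was at 3.74 ± 2.08 CPM in young α-cells (lowest 0.801, median 3.16, highest 7.75) and at 4.16 ± 4.10 CPM in old α-cells (lowest 0.486, median 2.74, highest 13.9; SD, n = 8 each). The range of the old monkeys enclosed that of the young, and the highest old value came from old female 1, where 176 of 196 TNFAIP3 UMIs lay in 1 cell. Without that cell old female 1 was at 1.44 CPM. The log2 age difference was 0.06 (SE 0.53), with an adjusted p of 0.993 in edgeR's quasi-likelihood test with Benjamini-Hochberg adjustment. Its sign turned in 5 of the 16 fits without 1 monkey, among them that without old female 1 (−0.45). It also turned without cells with markers of another type or few hormones (−0.51) and without cells low in their own hormone (−0.55).

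RIPK1 encodes the kinase that relays signals from the tumour necrosis factor receptor towards NF-κB or cell death. It was at 4.72 ± 2.59 CPM in young α-cells (lowest 1.997, median 4.65, highest 9.89) and at 4.35 ± 2.15 CPM in old α-cells (lowest 0.993, median 4.55, highest 6.85; SD, n = 8 each), and the ranges overlapped except for 1 monkey at each end. The log2 age difference was −0.11 (SE 0.35), with an adjusted p of 0.961 in edgeR's quasi-likelihood test with Benjamini-Hochberg adjustment. In β-cells it was at 8.15 ± 5.09 CPM in young and 6.22 ± 2.92 CPM in old monkeys. RIPK1 was lower in α- than in β-cells in 11 of 16 monkeys, with a log2 difference of −0.65 (SE 0.35, adjusted p = 0.131 in the same kind of fit), and it was called in 1 of the 16 fits without 1 monkey, that without old male 4 (−0.79, adjusted p = 0.0412).

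CXCL8 encodes interleukin-8, a chemokine that draws neutrophils. In young α-cells it was at 6.28 ± 11.1 CPM, with a lowest value of 0.0915, a median of 0.604 and a highest of 31.4, and in old α-cells at 0.931 ± 0.809 CPM, with a lowest value of 0, a median of 0.940 and a highest of 2.35 (SD, n = 8 each). Young females 4, 3 and 1, at 31.4, 13.4 and 3.74 CPM, lay above every other monkey, and the median of the young group was below that of the old group. The log2 age difference was −1.39 (SE 1.30), with an adjusted p of 0.869 in edgeR's quasi-likelihood test with Benjamini-Hochberg adjustment. The 4 young males lay between 0.200 and 0.754 CPM, and the age by sex interaction was 5.07 on the log2 scale (SE 1.74), with an unadjusted p of 0.00942 and an adjusted p of 0.908 in the same kind of fit. A lower level of CXCL8 in old α-cells was known when the gene was chosen, so these p-values are not independent of that choice. The levels also rested on few cells, described below.

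**Figure D3:**
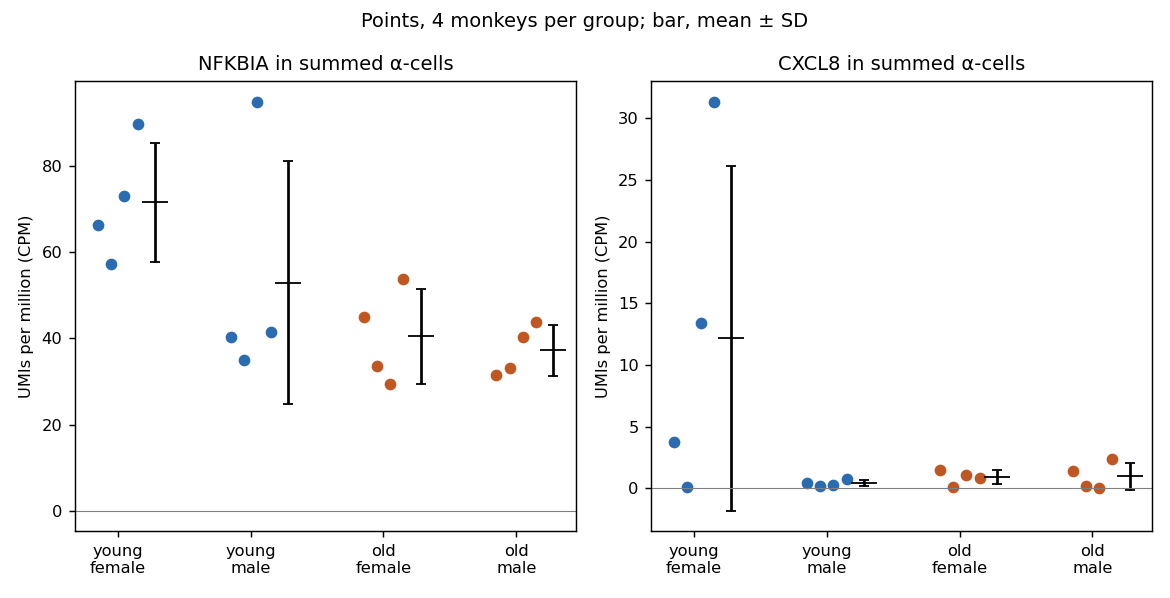
NFKBIA (left) and CXCL8 (right) in CPM in the summed α-cells of the 4 groups of 4 monkeys; points are monkeys, and the bar with whiskers is the mean ± SD. For NFKBIA all 4 young females lay above the 8 old monkeys, and for CXCL8 the spread of the young females, from 0.0915 to 31.4 CPM, exceeded that of each other group.

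A break in the values set 5 cells apart for CXCL8. They held 59.1% of all CXCL8 UMIs, at 5850 to 21532 CPM, and the next cell was at 673 CPM. Of the 5, 3 came from young female 4 and 1 each from young female 3 and old male 4. These cells held between 7525 and 19370 macaque UMIs, against an α-cell median of 68716 UMIs with spike-ins included. All were typed as α-cells, with GCG at 48089 to 93179 CPM.

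The genes that led these 5 cells over the other α-cells of the same monkeys, and that had a UMI in all 5, were myeloid rather than endocrine. Among those with a symbol, CXCL8 itself was followed by SRGN, a granule proteoglycan of blood cells, CSF3R, the receptor for granulocyte colony-stimulating factor, and MNDA, a nuclear protein of myeloid cells. CSF3R was at 7753 CPM in them and at 0.386 CPM in the other α-cells. CD14 was found in 5 of 5, TYROBP and PTPRC in 4 of 5, LAPTM5 in 3, LYZ in 2, FCER1G and AIF1 in 1 each, and CD68, C1QA, C1QB, C1QC, CD3D, CD3E, CD2 and NKG7 were at 0. By the listed markers 4 of the 5 counted as marked for immune cells, which goes against the label α-cell. Besides GCG, IRX2 reached 100 CPM in 2 of them and FEV in 1. The median GCG of β-cells was 19996 CPM in young female 4, 34064 in young female 3 and 30705 in old male 4, and that of the other α-cells 69522, 78087 and 86118 CPM.

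Without these 5 cells CXCL8 was at 2.10 ± 2.86 CPM in young and 0.642 ± 0.621 CPM in old α-cells (SD, n = 8 each), a choice of cells made after seeing the data. CXCL8 was higher in α- than in β-cells in 13 of 16 monkeys, by 1.36 on the log2 scale (SE 0.56), with an adjusted p of 0.0495 in edgeR's quasi-likelihood test with Benjamini-Hochberg adjustment. That was the only call among the 4 genes of the 10 that passed the filter on low counts, beside 27.3% of the 12137 genes tested called higher, 19.6% called lower and 46.9% called in all. The call was lost with no filter on low counts (adjusted p = 0.0571), with at least 20 cells per monkey (0.0540), without the block (0.0923) and in 9 of the 10 fits without 1 monkey in which the gene could be tested (0.0540 to 0.0991), and DESeq2 kept it (0.0464). Without cells with markers of another type or few hormones CXCL8 no longer passed the filter.

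CCL2 encodes the chemokine that draws monocytes. It had 378 UMIs in 48 cells, 33 of which held a single UMI. In α-cells it was at 1.83 ± 2.59 CPM in young monkeys (lowest 0, median 0.661, highest 7.42 in young female 2) and at 0.0994 ± 0.118 CPM in old monkeys (lowest 0, median 0.0408, highest 0.284; SD, n = 8 each), and 2 young and 3 old monkeys were at 0. Young female 2 held 42.9% of the UMIs. Its highest cell had 100 CCL2 UMIs together with 171 of UBD, 24953 CPM of GCG, which is 25.9% of the α-cell median of that animal, and 1 stellate marker, SPARC, over 100 CPM. The highest β-cell value, 2.63 CPM in old female 1, came mainly from 1 cell with 30 of 36 UMIs, in which the stellate list summed to 3863 CPM with the pericyte marker RGS5 above 100 CPM.

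ICAM1 encodes a ligand of leukocyte integrins. It was at 1.06 ± 1.41 CPM in young α-cells (lowest 0, median 0.662, highest 3.99) and at 1.80 ± 4.26 CPM in old α-cells (lowest 0, median 0.219, highest 12.3; SD, n = 8 each). The highest value was again old female 1 and the same cell as for TNFAIP3, which held 167 of 173 ICAM1 UMIs and 5 of 9 endothelial markers (PECAM1, VWF, KDR, PLVAP and FLT1) at 100 CPM or more. Without it old female 1 was at 0.431 CPM. Of the 10 cells highest in ICAM1, 6 carried 3 or more markers of 1 other cell type, and no cell reached 1000 CPM.

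VCAM1 encodes a second adhesion molecule of inflamed endothelium and of stromal cells that hold lymphocytes. Young male 3 had 93.8% of its 865 UMIs. Its α-cells were at 44.9 CPM, and the other 15 monkeys had between 0 and 1.05 CPM, with 3 young and 6 old monkeys at 0. In old α-cells VCAM1 had 2 UMIs in 2 of 2172 cells, a share of 0.0921% (95% exact binomial interval 0.0112 to 0.332).

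BCL2A1 encodes a survival factor of the Bcl-2 family that NF-κB induces in blood cells. In α-cells it was at 5.81 ± 11.4 CPM in young monkeys (lowest 0, median 0.457, highest 32.2 in young male 3) and at 0.303 ± 0.574 CPM in old monkeys (lowest 0, median 0, highest 1.65; SD, n = 8 each). Young male 3 held 55.6% of its UMIs. Like NFKBIA, ICAM1 and TNFAIP3, it reached 100 CPM in some of the cells highest in CXCL8 and in some of those highest in FDCSP, which are described below.

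UBD encodes FAT10, a ubiquitin-like protein that cytokines induce. Young male 3 held 78.8% of its 975 UMIs, with 42.1 CPM in α-cells, and young female 2 followed with 8.38 CPM. Only 1 UMI was found in the α-cells of all old monkeys, in 1 of 2172 cells. In β-cells young male 3 was at 5.30 CPM and every other monkey at 0.314 CPM or less.

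FDCSP encodes a small secreted peptide of follicular dendritic cells, the stromal cells of lymphoid follicles. Of its 15898 UMIs 99.97% were in young male 3, at 868 CPM in α-cells, 136 in β-cells and 219.8 in δ-cells. Outside that animal 5 UMIs were found, in 3 cells of young female 2. None of the 2172 α-cells and 683 β-cells of old monkeys had an FDCSP UMI, which by the limit of 3 counts allows a share of up to 0.138% of old α-cells with a UMI. Such limits and intervals cover counting error only.

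Within young male 3 the UMIs of FDCSP lay in 6 cells at 24631 to 110180 CPM, and the next cell was at 1195 CPM. Libraries 1 and 4 held 4 and 2 of them, and libraries 2 and 3 none. In the other cells of library 1, 98.8% had an FDCSP UMI (95% exact binomial interval 93.3 to 99.97), and in library 4 all 89 did (95.9 to 100), against 15.9% in library 2 (8.72 to 25.6) and 6 of 80 cells in library 3 (2.80 to 15.6%). The other types held it too, with all 11 β-cells and all 8 δ-cells of library 1 and all 14 β-cells and all 5 δ-cells of library 4 holding the gene. These other cells of libraries 1 and 4 carried 18.2% and 22.6% of the FDCSP UMIs of their library, at 330.5 and 257 CPM.

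**Figure D4:**
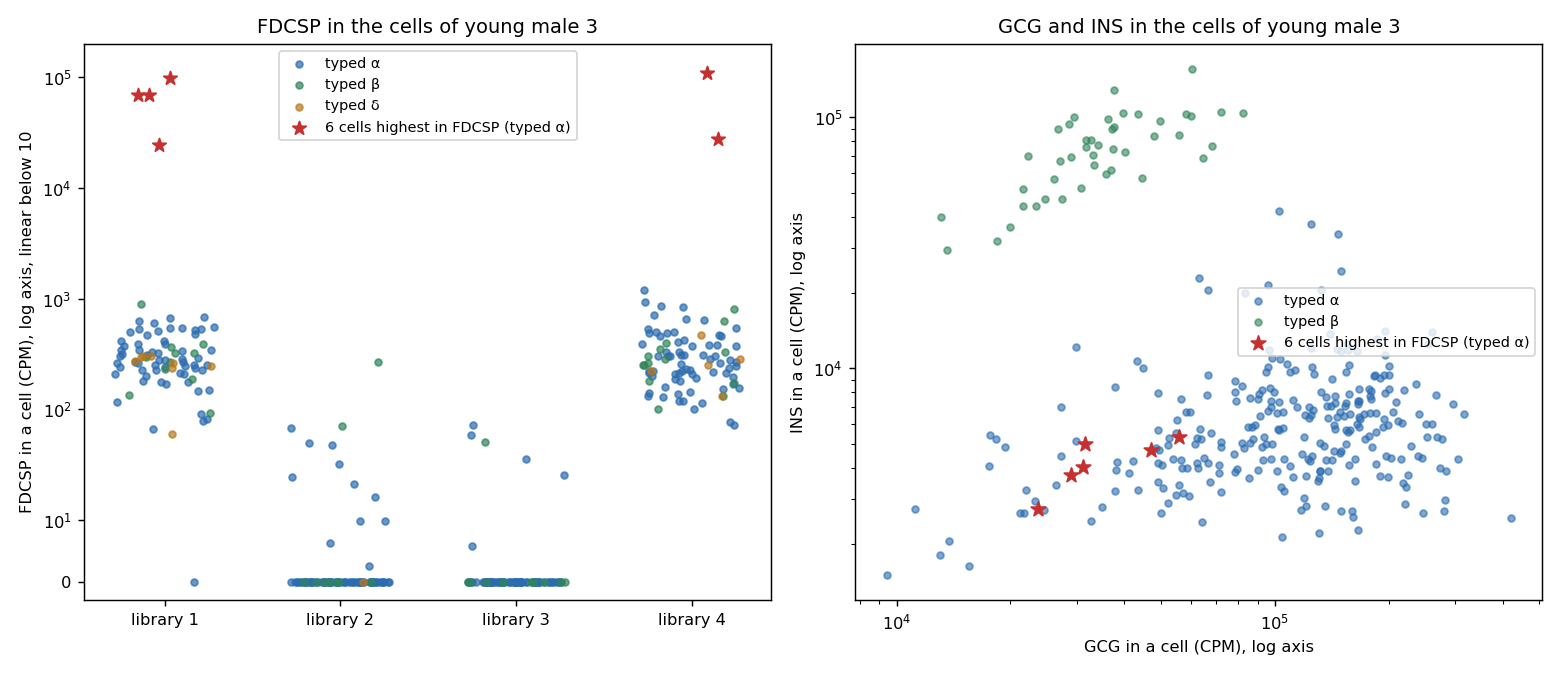
Left, FDCSP in CPM (vertical axis, logarithmic above 10 and linear below) in every cell of the 4 libraries of young male 3; right, GCG against INS in CPM in the α- and β-typed cells of the same monkey, both axes logarithmic; stars are the 6 cells highest in FDCSP. In libraries 1 and 4, which hold the 6 cells, nearly every other cell of each type had FDCSP, and the GCG of the 6 cells, 23677 to 55764 CPM, overlapped with that of β-cells.

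UBD and VCAM1 followed FDCSP in these libraries. There were 19.5 FDCSP UMIs per UBD UMI in the 6 cells and 28.1 in the other cells of libraries 1 and 4, and 18.6 and 25.2 per VCAM1 UMI. Of the UMIs of young male 3, libraries 2 and 3 together had 3 of UBD and 1 of VCAM1. BCL2A1 went a different way, with 247 UMIs in the 6 cells, 280 in the other cells of libraries 1 and 4 and 54 in library 3, of which a single cell with 11157 UMIs and PTPRC held 50. What part of the low level in neighbouring cells came from the 6 cells through the shared library was not tested.

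The 6 cells were typed α by the rule, but their hormones were close to those of β-cells for GCG and of α-cells for INS. The median of GCG was 31281 CPM, against 119580 CPM in the other 274 α-cells of the animal and 33626 CPM in its β-cells, and the median of INS was 4392 CPM, against 5515 in the other α-cells and 75220 in β-cells. The α-cell factor IRX2 was at a median of 74.5 CPM, against 303 in other α-cells and 42.5 in β-cells. Their GCG was thus at the level of the β-cells and their IRX2 between both types, which goes against the label α-cell. Their INS was near that of the other α-cells. The medians of the other cells pool all libraries of the animal. The 6 cells are called by their rule here.

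The genes leading the 6 cells were C3, the central complement component, at 5949 CPM against 13.96 in other α-cells, UBD, VCAM1, APOE, an apolipoprotein of macrophages and stroma, at 6965 against 35.8, CR2, the complement receptor of B cells and follicular dendritic cells, at 4893 against 23.5, and SPARC, a matrix protein, at 1069 against 6.95 CPM. Defining markers of other lists were mostly absent. PTPRC, CD68, the C1Q genes, TYROBP, FCER1G and the T-cell genes were at 0 in all 6, and no cell had 3 markers of 1 list at 100 CPM, while SPARC was found in 6 of 6, AIF1 in 3, and LYZ and CD14 in 2 each. Of the other stellate markers COL1A2 was found in 2 of 6, at up to 700 CPM, and RGS5 in 1, and COL1A1, COL3A1, PDGFRB, DCN and LUM were at 0. Summed over each list, immune markers were at 584 to 2859 CPM in the 6 cells, endothelial markers at 0 to 286 and stellate markers at 34.7 to 2286.

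Other genes of the NF-κB pathway went both ways in the same 6 cells, given as a description since the cells were picked for FDCSP. Of 72 listed genes 26 were higher in the summed 6 cells than in the other α-cells, 33 were lower, 20 of these with no UMI in the 6 cells, and 13 were at 0 in both. BIRC3, an inhibitor of cell death downstream of NF-κB, was at 1776 CPM against 48.4 in the other α-cells. The chemokine CXCL10 was at 484 against 1.65 CPM, IER3 at 219 against 0.912, and the prostaglandin synthase PTGS2 at 14894 against 3328. Among those lower, IL1RAP was at 8.13 against 108.5 CPM, the adaptor TRAF2 at 4.06 against 63.9 and CFLAR, an inhibitor of caspase-8 activation, at 16.3 against 56.7. The transcription factors themselves did not follow one direction, with RELA at 40.6 against 20.5, NFKB1 at 4.06 against 40.3 and RELB at 0 in both.

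In δ- and PP-cells, levels rested on few cells and were not tested. NFKBIA was at 94.0 ± 74.7 CPM in δ-cells of 7 young monkeys and 36.0 ± 21.3 CPM in those of 4 old monkeys, and at 64.6 and 89.3 CPM in the PP-cells of 2 young monkeys and 27.1 ± 21.04 CPM in those of 4 old monkeys. TNFAIP3 was at 17.2 ± 24.0 CPM in young and 5.78 ± 7.07 CPM in old δ-cells. RIPK1 was at 1.15 ± 1.96 CPM in young and 19.7 ± 28.9 CPM in old δ-cells, with 62.3 CPM in old male 4. Each of these ranges overlapped between ages except that of NFKBIA in PP-cells, where the lower young value exceeded the highest old value of 55.5 CPM. In PP-cells RIPK1 was at 10.6 and 26.9 CPM in 2 young monkeys and at 0 to 3.34 CPM in 4 old ones. CCL2 had no UMI in 112 δ-cells or 74 PP-cells. CXCL8 reached 76.7 CPM in the PP-cells of old male 2, from 16 UMIs in a single cell.

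Across all genes the age comparison made few calls. In α-cells edgeR called 0 of 12916 genes (0%), with 886 genes at an unadjusted p under 0.05, and DESeq2 called 24. Of the 10 genes 4 passed the filter on low counts, 1 of them with an unadjusted p under 0.05 (NFKBIA), and none was called by either tool. In β-cells edgeR called 5 of 10628 genes (0.047%), DESeq2 called 39, and of the 3 genes of the 10 that passed, none was called by either tool. FDCSP, UBD, VCAM1, CCL2 and BCL2A1, chosen on their values in α-cells, did not pass the filter, and no test is given for them. Young male 3 raised the young means of several of them: without that monkey VCAM1 was at 0.237 ± 0.377, FDCSP at 0.0327 ± 0.0865 UBD at 1.28 ± 3.13 and BCL2A1 at 2.04 ± 4.39 CPM, while CCL2 was at 1.58 ± 2.70 CPM (SD, n = 7).

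Whether the age effect differed between the sexes or between α- and β-cells was tested as an interaction. For sex, edgeR called 1 of 12916 genes (0.00774%) in α-cells and 0 of 10628 (0%) in β-cells, with 698 and 434 genes at an unadjusted p under 0.05. For cell type it called 0 of 12137 (0%), with 763 at an unadjusted p under 0.05. Of the 10 genes, 4, 3 and 4 could be tested, and none was called. In these fits the age effect of TNFAIP3 in α-cells minus that in β-cells was −1.27 on the log2 scale (SE 1.15, adjusted p = 0.954), the widest gap among the 4 genes.

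Cells high in several of the 10 genes at once were rare. At 100 CPM or more, 19 of 5908 cells (0.322%) had at least 3 of the genes. All 19 were typed α, 15 of them were marked or low-hormone cells, 10 held fewer than 20000 UMIs, and they came from 8 monkeys. The 6 cells highest in FDCSP and the 5 highest in CXCL8 were all among them. In libraries 1 and 4 of young male 3 nearly every cell had FDCSP, which can raise this count. A cell of library 4 counted through FDCSP at 144 CPM, beside BCL2A1 at 471 and NFKBIA at 427 CPM. No β-, δ- or PP-cell had 3 or more. By monkey, the share of α-cells with at least 3 was 0.685 ± 1.00% in young animals, with 3 of 8 at 0 and 2.86% in young male 3, and 0.149 ± 0.219% in old animals, with 5 of 8 at 0 and a highest value of 0.556% (SD, n = 8 each). Without cells with markers of another type or few hormones the shares were 0.598% and 0%.

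Some pairs met in the same cells and others never did. UBD and VCAM1 were both at 100 CPM or more in 7 cells, of 10 with UBD and 16 with VCAM1, 6 of them in young male 3. CXCL8 and BCL2A1 met in 4 cells, 17.4% of those with CXCL8 and 23.5% of those with BCL2A1. CXCL8 met neither CCL2, VCAM1, UBD nor FDCSP in any cell. CCL2 met VCAM1 in 3 cells and UBD in 2, and NFKBIA was at 100 CPM or more in 7 of the 8 cells with CCL2, 10 of the 13 with ICAM1 and 8 of the 16 with VCAM1, while 1007 of all 5908 cells reached that level of NFKBIA. Marked or low-hormone cells were 5 of those 7, 9 of those 10 and 6 of those 8, all 7 shared by UBD and VCAM1 and 3 of the 4 shared by CXCL8 and BCL2A1. The level of 100 CPM can rest on few UMIs: a cell of young female 4 with 16214 UMIs reached it for NFKBIA with 2. RIPK1 met only CXCL8, FDCSP and NFKBIA in any cell, and of the 45 pairs 12 shared no cell.

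**Figure D5:**
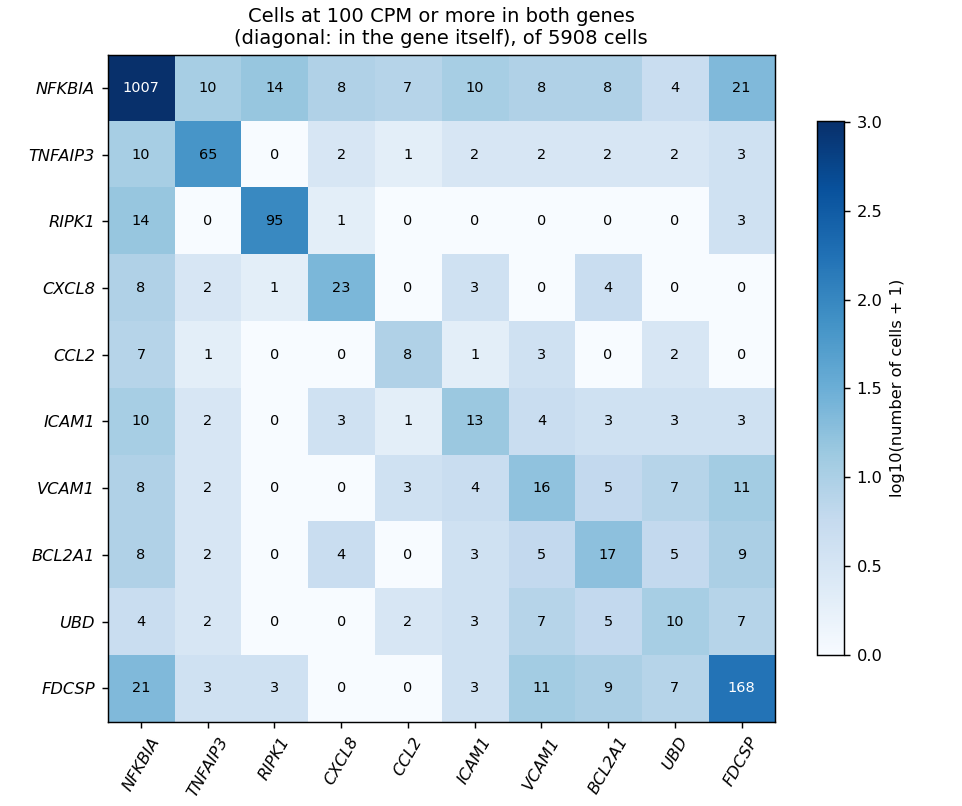
Number of cells at 100 CPM or more in both genes of a pair, of 5908 cells; the diagonal gives the cells at that level in the gene itself, and the colour is the log10 of the number plus 1. UBD, VCAM1, FDCSP and BCL2A1 share cells, whereas CXCL8 shares 0 cells with CCL2, VCAM1, UBD and FDCSP. FDCSP reached 100 CPM in 168 cells. The summed other cells of libraries 1 and 4 of young male 3 were at 330.5 and 257 CPM, so overlaps with FDCSP include cells at that library-wide level.

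Over all α-cells of a monkey most pairs of the genes that could be compared were close to unrelated. The median Spearman correlation over the pairs, of expression as log2(CPM/10 + 1), had a median of −0.00998 over 16 monkeys (SD 0.0335) and lay between −0.0328 and 0.0957, the highest in young male 3. For 39 of the 45 pairs the median over monkeys was within 0.1 of 0. A pair could be compared only in monkeys whose α-cells held both genes. That left between 2 and 16 monkeys per pair, and 2 for each pair with FDCSP. The points of a monkey share its libraries and depth, and most counts are 0, so such values are a description. In young male 3 the correlation was 0.54 for VCAM1 and FDCSP, 0.54 for VCAM1 and UBD, 0.51 for UBD and FDCSP and 0.47 for UBD and BCL2A1. These values pool its libraries, which differed in level. The 162 cells of libraries 2 and 3 held 22 UMIs of FDCSP, 3 of UBD and 1 of VCAM1. What part of the correlations came from the library was not tested.

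Genes of the NF-κB pathway outside the 10 were read from a list of 76, of which 72 are in the files. In α- against β-cells, 49 could be tested in edgeR's quasi-likelihood test, and 13 were higher and 7 lower in α-cells, beside 27.3% and 19.6% of all genes, with a median difference of 0.18 on the log2 scale against 0.09 over all genes tested. The interleukin-1 receptor accessory protein IL1RAP had a log2 difference of 2.78 (SE 0.18, adjusted p = 2.02e-12), and the receptor IL1R1 one of −1.15 (SE 0.26, adjusted p = 0.00071). The stress gene GADD45B (1.63), PTGS2 (1.58), the A20-binding protein TNIP3 (1.60), the coactivator BCL3 (1.21), the adaptor TRAF2 (1.13) and the nuclear IκB protein NFKBIZ (1.00) were higher in α-cells. TRAF1 and TNFAIP8, a regulator of apoptosis, were lower there, with differences of −1.26 and −3.99.

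With age, none of the 53 pathway genes tested in α-cells and none of the 45 tested in β-cells was called by edgeR, with 5 in each at an unadjusted p under 0.05. Over all genes, edgeR called 0 of 12916 (0%) in α-cells and 5 of 10628 (0.047%) in β-cells, with 886 and 589 at an unadjusted p under 0.05. The median log2 age difference was −0.05 in α-cells and 0.03 in β-cells, against −0.002 and −0.006 over all genes tested. In β-cells the receptor TNFRSF1A was 1.18 higher in old monkeys on the log2 scale (SE 0.33), with an adjusted p of 0.405 in edgeR's quasi-likelihood test with Benjamini-Hochberg adjustment and 0.0387 in DESeq2. Complement C3 had the largest difference of the list in α-cells, −2.64 (SE 2.73, adjusted p = 0.877), and an age by sex interaction of −9.92 (SE 2.43, adjusted p = 0.908). In young male 3 it was at 5949 CPM in the 6 cells highest in FDCSP and at 13.96 CPM in the other α-cells. The gene could be fitted in only 2 alternatives for age and 1 for the interaction. The interaction values that were largest otherwise were those of TNFAIP8 (−2.86) and NFKBIE (−2.13) in α-cells and NFKB2 (−2.94), BCL3 (1.80) and TNIP1 (−1.73) in β-cells, with adjusted p between 0.908 and 0.9995. Between cell types the age effects of NFKBIE (−1.49), RELB (1.19) and IER3 (−1.11) lay farthest apart, with adjusted p between 0.742 and 0.9645.

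Immediate-early genes, which stress and dissociation also raise, were read beside the pathway. All 6 that could be tested of 8 listed were called higher in α- than in β-cells, beside 27.3% of the 12137 genes tested. The log2 differences were 2.32 for ATF3, 2.29 for FOSB, 2.25 for FOS, 1.97 for EGR1, 1.94 for JUNB and 1.76 for ZFP36, with a median of 2.11. Their adjusted p lay between 3.7e-15 and 0.000108 in edgeR's quasi-likelihood test with Benjamini-Hochberg adjustment. With age none was called in either type, beside 0% of all genes in α-cells and 0.047% in β-cells. Their median difference with age was −0.43 in α-cells and −0.007 in β-cells. The part of handling of the cells in the levels of NFKBIA and the other genes was not tested.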

How the data were processed

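The deposited files hold UMI counts for each gene in each picked cell, which the authors obtained by trimming reads, aligning them to the Macaca_fascicularis_5.0 assembly, counting reads that mapped once and collapsing those with the same UMI. The counts are not normalized or filtered and include 95 spike-in RNAs. The submitters' processing notes list TopHat2 2.0.12 and CASAVA 1.8. No value column was left unused (0), and no coordinates or sequences are given.

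CPM were computed over macaque UMIs, and doublets were not called. The 10 genes, the pathway list and the marker lists were chosen with earlier results of these data known. For each monkey, the replicate, UMI counts of a cell type were added up where at least 5 of its cells were present. These sums went into edgeR 4.0.16 (R 4.3.3) with TMM scaling, its filter on low counts and quasi-likelihood tests, with sex as covariate for age and monkey as block for cell type. Genes with a Benjamini-Hochberg adjusted p under 0.05 were called. The study's test over cells was not used, since cells of a monkey are not replicates. Other values came from Python 3.11.15 (pandas 2.3.3, numpy 2.4.6, scipy 1.17.1) and figures from matplotlib 3.10.9.

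Named were the 10 genes, and of the pathway list up to 10 genes with the smallest adjusted p under 0.05 in a comparison or, where fewer than 3 passed, the 3 with the largest difference. The genes most like the 10 were those with the highest Spearman correlation with their mean z-score within monkeys, among genes with a UMI in 10% of α-cells. The cells highest in CXCL8 and FDCSP, and the monkeys and cells singled out, were chosen after their values were seen. Alternatives were DESeq2 1.42.0, RLE size factors, no filter on low counts, at least 20 cells per monkey, no sex term, leaving out monkeys in turn, a replicate block, cells thinned to 10000 UMIs (45 cells had fewer) and 3 choices of cells. On simulated counts with log2 changes of 2 in 200 genes, the fits recovered 191 for age in α-cells (18715 genes run), 158 in β-cells (17401) and 191 between the types (18911), with 7, 9 and 7 false calls. The changed genes were drawn only from genes above a minimum mean level. These counts thus do not speak for genes with few UMIs or for smaller changes, such as that of NFKBIA with age in α-cells (−0.69).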

Additional observations from a re-analysis of the deposited data

Results flagged for a closer look

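In a group of 8 monkeys, a value is listed here when its gap to the nearest other monkey exceeded 0.526 of the range of the group, which for normally distributed values chance gives in about 1 in 20 groups. That rate does not hold for groups in which most monkeys were at or near 0, where a single UMI can be enough. All 17 values listed were the highest of their group. Young male 3 had 7 of them and old female 1 had 5. In 8 of the 17 a single cell held over 50% of the UMIs, and 11 stayed above the next monkey without their highest cell, among them all 7 of young male 3.

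Young male 3 stood apart for 4 genes that share cells. FDCSP was at 868 CPM in its α-cells (next young monkey 0.229) and 136 CPM in its β-cells (next 0), UBD at 42.1 (next 8.38) and 5.30 CPM (next 0.107), VCAM1 at 44.9 (next 1.05) and 3.67 CPM (next 0.779), and BCL2A1 at 32.2 CPM in α-cells (next 11.9). Without the cell with the most UMIs, the α-cell values were 688 CPM for FDCSP, 24.1 for UBD, 20.9 for VCAM1 and 27.6 for BCL2A1, all still the highest of the young group. Leaving out 1 cell does not take out the 6 cells highest in FDCSP. The other 274 α-cells of young male 3 were at 157 CPM for FDCSP, 6.55 for VCAM1 and 5.58 for UBD. That UBD level was below the 8.38 CPM of young female 2.

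Old female 1 stood apart for 5 values. In α-cells TNFAIP3 was at 13.9 CPM (next 4.33) and ICAM1 at 12.3 CPM (next 1.33), and without the cell with endothelial markers that held most of both they were at 1.44 and 0.431 CPM. In β-cells CCL2 was at 2.63 CPM (0.439 without its highest cell), BCL2A1 at 2.12 (0.814) and CXCL8 at 1.83 (1.65). Young female 4 was at 31.4 CPM of CXCL8 in α-cells, and at 17.8 without the highest cell. Old male 4 was at 1.65 CPM of BCL2A1 in α-cells, all 40 UMIs of which were in 1 of the cells highest in CXCL8.

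In old β-cells NFKBIA was at 104.6 CPM in old female 4 (94.7 without its highest cell) and TNFAIP3 at 12.1 CPM in old female 3 (1.96 without the cell that held 29 of 34 UMIs). In old α-cells UBD was at 0.0403 CPM in old female 3, from 1 UMI, while the other 7 were at 0.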

How the results depend on the processing

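Across the alternatives the genes called by age stayed few in edgeR and rose with DESeq2. In α-cells 0 were called in edgeR under each of 25 alternatives and 24 with DESeq2. In β-cells the 5 called became 1 after thinning, 3 with at least 20 cells per monkey, 21 with no filter on low counts, 39 with DESeq2 and between 2 and 8 without 1 monkey, with 2 without young male 1 or young male 2. The age by type interaction had 2 calls after thinning. Between α- and β-cells 5698 became 5321 to 5700 without 1 monkey.

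Monkey numbers are names within a group: the deviations of animals sharing a number had correlations between −0.167 and 0.134, 1 of 16 over 0.1. With a replicate block 0 genes were called in α-cells and 6 in β-cells, and without the monkey block 5006 between the types. TNFAIP3 with age in α-cells turned to −0.10 with the replicate block, −0.51 without marked or low-hormone-sum cells and −0.55 without cells low in their own hormone. Also reversed were, after thinning, RIPK1 (−0.76) and NFKBIA (−0.50) by sex in α- and β-cells and NFKBIA by type (−0.34), and RIPK1 by type (−0.14) without cells low in their own hormone. Without 1 monkey, RIPK1 with age in α-cells lay between −0.23 and 0.06 (0.0564, without young female 2) and TNFAIP3 between −0.45 (without old female 1) and 0.30. The last choice of cells and the thinned interactions were added after seeing the data.

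The median correlation of the 10 genes was 0.03 when centred in each library (0.0317) and between −0.0111 and −0.00882 without 1 monkey. The share of α-cells with at least 2 genes was 2.36% in young and 0.512% in old monkeys. With 3 genes it lay between 0.375% (without young male 3) and 0.783% in young and 0.0911% and 0.170% in old animals without 1 monkey. The 6 genes with few UMIs other than CXCL8 did not pass the filter on low counts, and between 2 and 5 cells held 50% of the UMIs of each.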

Other observations

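Genes outside the 10 whose pattern over α-cells was most like theirs were sought within each monkey, as the Spearman correlation with the mean z-score of the 10 genes, averaged over 16 monkeys and among 9190 genes. Highest was MGP, a matrix protein that inhibits calcification, at 0.13 (from −0.07 to 0.47, positive in 14 of 16 monkeys). Also among the 10 highest were SRGN, the granule proteoglycan (0.13), CD74, the invariant chain of class II molecules (0.12), the matrix protein SPARC (0.11), TMSB10, an actin-binding peptide (0.11), KRR1 (0.11) and ZFP36, which destabilises inflammatory transcripts (0.10), and 3 genes named by identifier alone.

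These correlations were weak, and the median over all 9190 genes was 0.03. The points share libraries and depth, and the score itself had a mean correlation of 0.09 with the UMIs of a cell. KRR1 and a gene named by identifier alone were each positive in 16 of 16 monkeys.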
